A study of Mus musculus with 6 samples.

Results

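The D-type cyclins (Ccnd1, Ccnd2 and Ccnd3), the G1 kinases that they activate (Cdk4 and Cdk6) and 5 inhibitors of cyclin-dependent kinases (Cdkn1a, Cdkn1b, Cdkn1c, Cdkn2c and Cdkn2a) were followed in mouse pancreatic islets with and without Ffar3. These 10 genes were chosen by symbol, and each was found on 1 row of the 23179 gene rows in every library. Ffar3 encodes a cell-surface receptor for short-chain fatty acids such as propionate and butyrate. The wild-type (WT) group had 3 libraries from C57BL/6J male mice of genotype wildtype, and the knockout (KO) group had 3 libraries from C57BL/6J male mice of genotype Ffar3-/-. All mice were 10 to 14 weeks old, none is labelled as treated, and each library was made from total RNA of islets picked from the pooled isolations of 2 pancreata. How the Ffar3 allele was made, and whether the WT mice were littermates, is not given in the sources used here. Each library was described as a biological replicate, so a group compares 3 pools, and the mice within a pool cannot be told apart.

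In the G1 phase a D-type cyclin binds CDK4 or CDK6, and the active kinase phosphorylates the retinoblastoma protein, which releases E2F factors to start DNA replication. Inhibitors of the INK4 family, such as p18 from Cdkn2c and p16 from Cdkn2a, bind the kinases directly, while those of the Cip/Kip family, p21, p27 and p57 from Cdkn1a, Cdkn1b and Cdkn1c, bind cyclin and kinase together. In mouse beta cells cyclin D2 and CDK4 are required for growth of the beta cell mass after birth, and adult beta cells divide rarely.

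Levels were taken to be FPKM. These are fragment counts divided by the length of the transcript and the size of the library, so that different genes can be set side by side. How these libraries were scaled to each other is not given. Their values summed to 429148 to 451899 in WT and to 416935, 698280 and 1056344 in KO replicates 1, 2 and 3, so the totals were not equal. Differences were taken as KO minus WT on the log2(FPKM + 1) scale, on which a change at a low level comes out smaller than it is. Genes whose 6 libraries averaged 1 FPKM or more were tested with limma, and an adjusted p under 0.05 was called a rise or a fall. Of 11669 tested genes 39.9% were called, 20.3% higher and 19.6% lower in KO, and the KO and WT values did not overlap for 56.3%.

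Promoter windows are shown for Cdkn1a and Cdk4, to let a reader see what lies before the start of the gene that rose and of the kinase that fell. Each is the 250 bases before an annotated start on GRCm38.p6, the plus strand in all 3 cases, read 5′ to 3′. Of the 10 members, 7 were matched to RefSeq windows in the table used here, 11 windows in all, and those of Ccnd1, Ccnd2 and Cdkn1c were not analysed here. Cdkn1a has 2 annotated starts that lie 2790 bases apart, and the deposited value does not tell them apart. Capitals mark every match to 1 short motif per window, searched on both strands: CATGNNNNNNCATG at the first start of Cdkn1a, which is the paired core of the site that p53 binds, GGGCGG (the GC box) at its other start, and CACGTG (the E-box bound by Myc and related factors) before Cdk4. The motifs were picked after the windows had been read.
Cdkn1a, first start, chr17:29090729-29090978: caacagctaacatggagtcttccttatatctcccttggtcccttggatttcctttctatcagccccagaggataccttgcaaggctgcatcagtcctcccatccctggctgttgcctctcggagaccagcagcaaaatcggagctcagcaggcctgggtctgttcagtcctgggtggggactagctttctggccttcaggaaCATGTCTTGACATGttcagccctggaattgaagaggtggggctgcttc
Cdkn1a, other start, chr17:29093519-29093768: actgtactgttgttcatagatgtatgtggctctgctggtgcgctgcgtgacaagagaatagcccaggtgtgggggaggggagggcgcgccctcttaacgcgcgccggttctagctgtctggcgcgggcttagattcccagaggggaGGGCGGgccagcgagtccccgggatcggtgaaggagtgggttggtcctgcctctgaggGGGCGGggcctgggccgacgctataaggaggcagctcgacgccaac
Cdk4, chr10:127063285-127063534: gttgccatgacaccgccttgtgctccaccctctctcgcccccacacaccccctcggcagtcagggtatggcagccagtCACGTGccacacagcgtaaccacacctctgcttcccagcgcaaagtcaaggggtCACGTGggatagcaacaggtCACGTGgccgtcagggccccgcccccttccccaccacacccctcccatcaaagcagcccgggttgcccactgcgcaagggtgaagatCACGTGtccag

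The p53-type core lay 48 to 35 bases before the first start of Cdkn1a, and 0.49% of 32851 RefSeq windows of the same length held a match to it. The window at the other start held 2 GC boxes, and 32.7% of all windows held at least 1. The Cdk4 window held 1 GC box, which is not in capitals, and 4 E-boxes, which began 172, 118, 98 and 11 bases before the start. At least 1 E-box was present in 6.02% of windows and at least 4 in 7 windows (0.0213%). Among the other members with a window, Cdk6 had 1 E-box and the windows of Ccnd3, Cdkn1b, Cdkn2c and Cdkn2a had none. No other member had the p53-type core. Each match is a description of letters, not of a bound factor.

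The libraries were first checked against their labels. Ffar3 was at 4.69, 5.26 and 6.68 FPKM in WT replicates 1, 2 and 3, was listed at 0 in KO replicates 1 and 2, and was at 0.105 FPKM in KO replicate 3. The islet peptide gene Iapp was at 27420 to 36610 FPKM in all 6 libraries, while Ins2 was listed at 0 in all of them and Ins1 at 0 in all but KO replicates 2 and 3, so insulin is not compared here. Total read depth is unknown. The summed FPKM of 31 acinar genes, markers of the enzyme-secreting cells around the islets, was 27250 to 42640 in WT, and the 3 KO libraries, in replicate order, had 25680, 257600 and 547900. The sum of 12 duct genes was 1263 to 1405 in WT and 1622 to 2234 in KO, and that of 11 lymphoid genes was 7.12 to 8.19 in WT and 18.4 to 181 in KO. Of the tested markers, 1 of 31 acinar genes rose and 1 fell, and 3 of 11 duct genes and 5 of 8 lymphoid genes rose. None of these lists held a gene at 0 in all libraries. The marker counts in this paragraph are to be read beside the 20.3% called higher and 19.6% called lower over all tested genes. The sum of 8 alpha cell genes was 19920 to 24130 in WT and 7289 to 13670 in KO, and 3 of the 8 fell. The sum of 4 delta cell genes was 5096 to 5375 in WT and 2581 to 4640 in KO, and 1 of 3 tested fell, while that of 6 Schwann and neural genes was 13.4 to 13.6 and 10.4 to 12.9, and 2 of 3 tested fell. Of 11 tested beta cell genes, Mafa, Nkx6-1, Ucn3 and Glp1r fell, named after their values were seen, and 0 rose. Mafa, a transcription factor of mature beta cells, had a mean of 207 FPKM in WT and 69.8 in KO (limma adjusted p = 0.00435). Sums of endothelial, stellate and myeloid genes overlapped between the groups. KO replicate 1 was therefore also set alone against WT, on the assumption that it varies like the WT libraries, and in that comparison 26.1% of tested genes were called. These libraries come from tissue, so fewer cells of a type and less RNA per cell cannot be told apart.

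Of the 10 members, 8 passed the filter on low values. Among these 8, Cdkn1a rose, Ccnd1 and Cdk4 fell, and 5 did not pass the test, so that 3 of 8 were called beside a background of 39.9%. Ccnd1 and Cdkn1a moved further than most genes: 1.94% of tested genes had a larger fall than Ccnd1, and 2.71% had a larger rise than Cdkn1a. Values of KO and WT did not overlap for Ccnd1, Cdk4, Cdkn1a and Cdkn2c, beside 56.3% of all tested genes. The number of members called was thus near the share over all genes. The median log2 difference of the 8 was -0.10, against -0.01 over all tested genes.

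**Figure D1:**
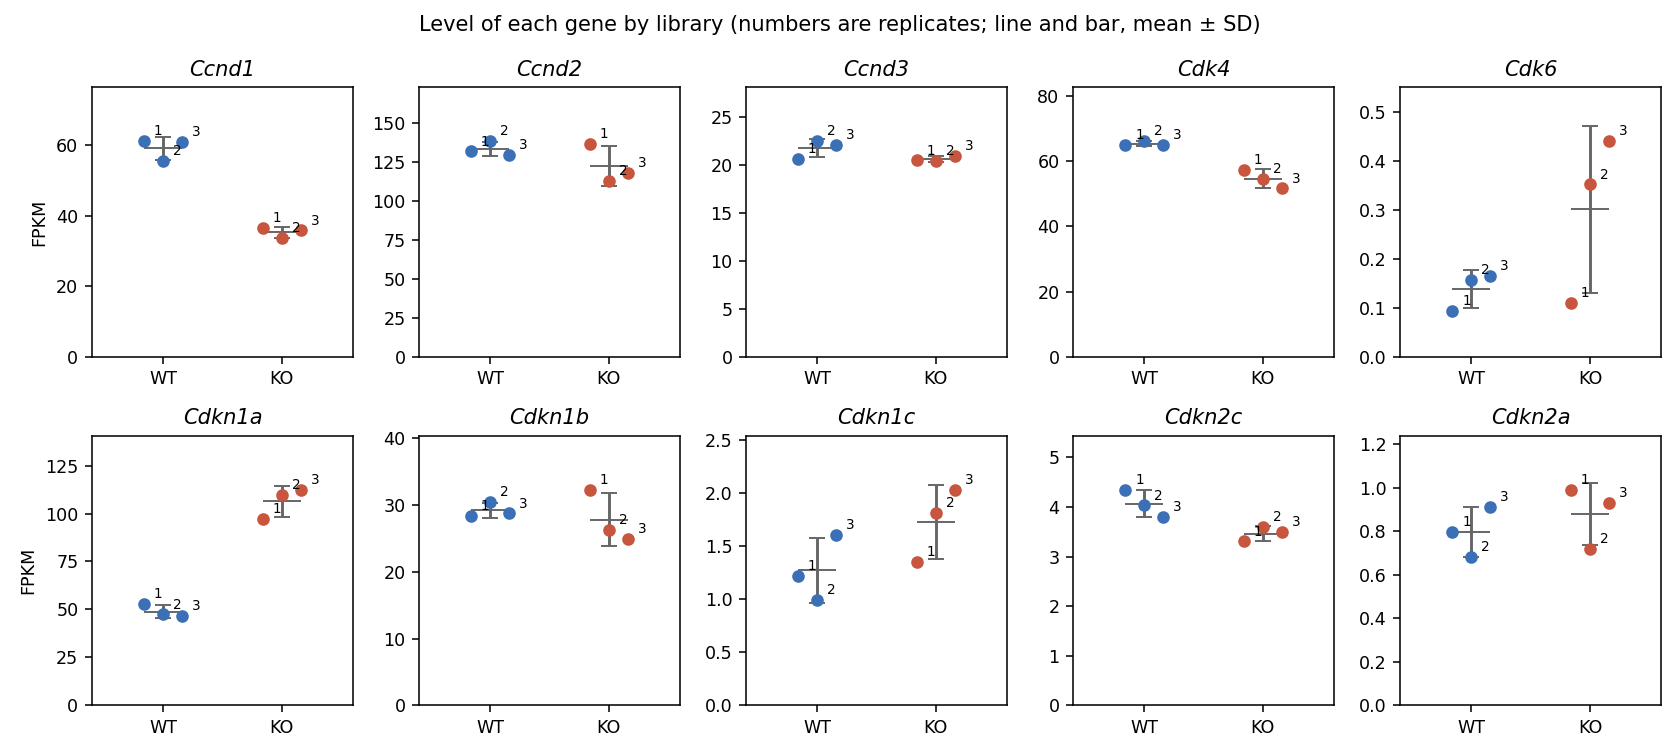
FPKM of the 10 genes in each of the 3 WT (blue) and 3 KO (red) libraries, with the replicate number beside each point and the group mean ± SD as a line and bar; each panel has its own axis from 0. Ccnd1 lies at 55.5 to 61.2 in WT and 33.6 to 36.7 in KO, Cdkn1a at 46.5 to 52.8 and 97.0 to 112, and the groups of Ccnd2, Ccnd3, Cdk6, Cdkn1b, Cdkn1c and Cdkn2a overlap.

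The cyclins differed among themselves in how they compared between the groups. Ccnd1, which encodes cyclin D1, was at 61.2, 55.5 and 60.9 FPKM in WT and at 36.7, 33.6 and 35.9 FPKM in KO. All 3 KO libraries lay below all 3 WT libraries, with the lowest WT value well above the highest KO value. Its mean was 59.2 ± 3.22 in WT and 35.4 ± 1.58 in KO (SD, n = 3 per group), a KO level of 59.8% of WT. The log2 difference was -0.73 (SE 0.06, 95% confidence interval -0.88 to -0.58, limma adjusted p = 0.000645). In KO replicate 1 alone, whose acinar sum was below that of every WT library, it was -0.67 (limma adjusted p = 0.00344). An exact two-sided permutation test of the gene by itself gave p = 0.1, the smallest that 3 against 3 libraries allow. Ccnd1 overlaps Oraov1 on the opposite strand, whose difference was -0.02 (limma adjusted p = 0.79).

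Ccnd2 encodes cyclin D2, the D-type cyclin with the highest level in these islets. It was at 132, 138 and 129 FPKM in WT and at 136, 112 and 118 FPKM in KO. KO replicate 1 lay among the WT libraries, and KO replicates 2 and 3, the libraries with high acinar sums, lay below them. The log2 difference was -0.13 (95% confidence interval -0.33 to 0.08, limma adjusted p = 0.265), so a fall of up to 0.33 lay within the interval. Without KO replicate 1 it was -0.21 and passed (limma adjusted p = 0.0308), while in KO replicate 1 alone it was 0.04 (limma adjusted p = 0.684). When the fit took the acinar level as a covariate the difference was -0.0066 (0.955), and with sums outside the acinar genes made equal it was -0.25 (0.246). Ccnd3, for cyclin D3, was at 20.7, 22.5 and 22.1 FPKM in WT and at 20.5, 20.5 and 20.9 in KO. Its groups overlapped by a small margin, and the difference of -0.07 (95% confidence interval -0.20 to 0.05) did not pass (limma adjusted p = 0.301). Ccnd3 overlaps Bysl, on the opposite strand as well, at 0.12 (limma adjusted p = 0.28).

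The kinase pair was almost wholly Cdk4. Cdk4 was at 64.9, 66.1 and 65.1 FPKM in WT and at 57.4, 54.6 and 51.6 in KO. The WT libraries were close to one another, with a coefficient of variation of 1.03%, and every KO library lay below them. The log2 difference was -0.26 (SE 0.06, 95% confidence interval -0.39 to -0.12, limma adjusted p = 0.0133), a KO level of 83.4% of WT. The call did not stand in several other fits. The limma adjusted p was 0.0538 without WT replicate 1, 0.0537 without WT replicate 3, 0.0575 when KO replicate 1 stood alone and 0.0552 when the acinar level entered as a covariate. It was 0.0768 with libraries scaled to equal sums outside the acinar genes and 0.0752 when the insulin rows were left out of those sums too. The difference itself was -0.26 without either WT library, -0.39 and -0.29 in the scaled fits, -0.18 in KO replicate 1 alone and -0.19 with the covariate. Cdk4 overlaps Tspan31 on the opposite strand. The strand setting of the counting is not given in the sources used here, so reads of the shared stretch cannot be told apart here or for Ccnd1 and Ccnd3. The same limit holds for Ccnd2, Cdk6, Cdkn1a and Cdkn1c, which also overlap annotated genes on the opposite strand. At Ccnd2 this includes 9330179D12Rik, at 0.308 FPKM on average. AC167363.2, at Cdkn1a, had no row of that name. Tspan31 was at 56.4 to 59.2 FPKM in WT and 49.5 to 59.4 in KO, with a difference of -0.05 (limma adjusted p = 0.638).

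Cdk6, the other kinase that D-type cyclins activate, was near the lower end of what was measured. It was at 0.0942, 0.157 and 0.165 FPKM in WT and at 0.111, 0.353 and 0.441 in KO. The 2 high values were those of KO replicates 2 and 3, and KO replicate 1 lay among the WT libraries. Its mean was under 1 FPKM, and it was therefore not tested among the 11669 genes. In the fit with no filter on low values its difference was 0.18 (limma adjusted p = 0.207). Cdk6 made up 0.145% to 0.253% of the summed FPKM of the kinase pair in WT and 0.192% to 0.847% in KO, and an exact permutation test of that share gave p = 0.3.

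**Figure D2:**
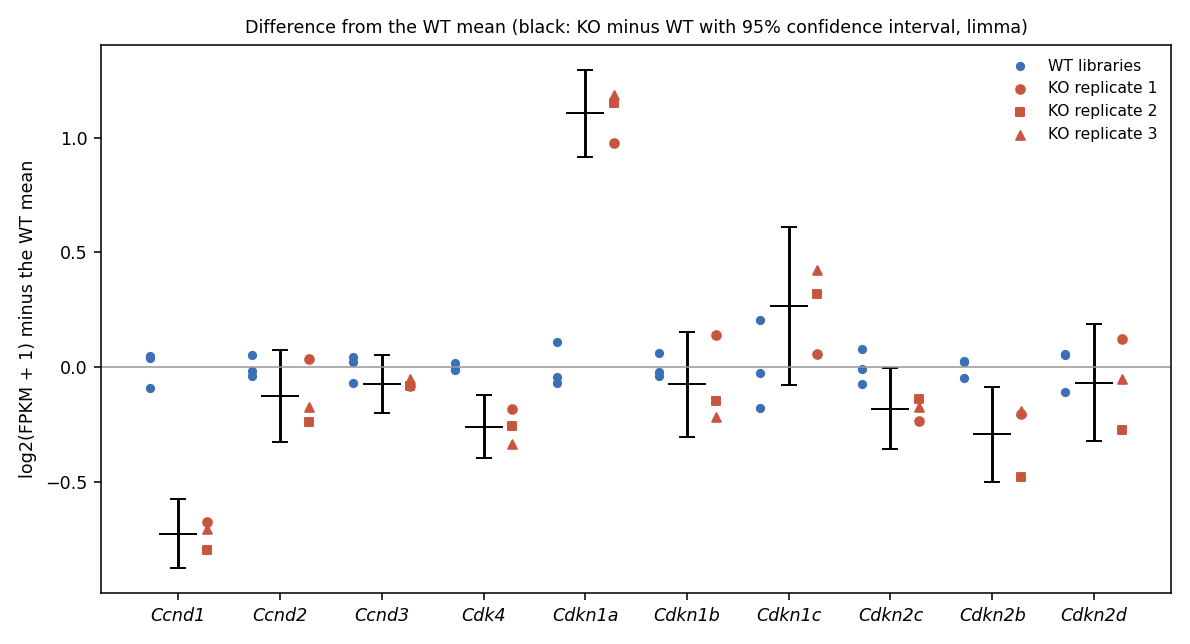
Log2(FPKM + 1) of each library minus the WT mean for the 8 tested members and for Cdkn2b and Cdkn2d, with WT libraries in blue, KO libraries in red by replicate, and the limma difference with its 95% confidence interval in black. The 3 KO points of Ccnd1 sit near -0.73 and those of Cdkn1a near 1.11, while for Ccnd2 and Cdkn1b KO replicate 1 sits above 0 and the other KO libraries below it.

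Among the inhibitors, Cdkn1a was the only one of the members to rise. It encodes p21, the Cip/Kip protein that p53 induces when DNA is damaged. It was at 52.8, 47.4 and 46.5 FPKM in WT and at 97.0, 110 and 112 FPKM in KO. Every KO library lay above every WT library, by a distance much larger than the spread in either group. The mean was 48.9 ± 3.43 in WT and 106 ± 8.25 in KO (SD, n = 3 per group), a KO level 2.18 times that of WT. The log2 difference was 1.11 (SE 0.08, 95% confidence interval 0.91 to 1.30, limma adjusted p = 0.000397), and the exact permutation test of this gene by itself gave p = 0.1. In KO replicate 1 alone the difference was 0.98 (limma adjusted p = 0.00181), with an acinar sum below that of every WT library. The sums of the duct and lymphoid markers were above WT in all 3 KO libraries, and their part in the rise was not tested.

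The other Cip/Kip genes did not pass. Cdkn1b, for p27, was at 28.3, 30.5 and 28.7 FPKM in WT and at 32.3, 26.2 and 24.9 in KO. KO replicate 1 was the highest of all libraries and KO replicates 2 and 3 were the lowest, so the groups overlapped. The log2 difference was -0.07 (95% confidence interval -0.30 to 0.15, limma adjusted p = 0.555). Without KO replicate 1 it was -0.18 and passed (limma adjusted p = 0.0417), in KO replicate 1 alone it was 0.14 (0.169), and the covariate fit gave 0.10 (0.276). Cdkn1c, the imprinted gene for p57, was at 1.22, 0.994 and 1.60 FPKM in WT and at 1.35, 1.81 and 2.03 in KO. The difference was 0.27 (95% confidence interval -0.08 to 0.61, limma adjusted p = 0.174), with KO replicate 1 among the WT values.

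The INK4 genes were lower in level than Cdkn1a and Cdkn1b. Cdkn2c, for p18, was at 4.35, 4.03 and 3.81 FPKM in WT and at 3.30, 3.60 and 3.49 in KO. The KO libraries lay below the WT libraries without overlap, but the difference of -0.18 (95% confidence interval -0.36 to -0.00) did not pass over all genes (limma adjusted p = 0.0909). It passed under quantile normalization (-0.23, limma adjusted p = 0.0468). Cdkn2a, whose locus encodes p16 and the unrelated p19Arf from different first exons, was at 0.796, 0.682 and 0.913 FPKM in WT and at 0.992, 0.721 and 0.930 in KO. These values overlapped, the gene was under the filter, and the fit with no filter gave 0.07 (limma adjusted p = 0.599). The single value of Cdkn2a does not separate the 2 annotated transcripts.

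The remaining INK4 genes were taken from a list of other INK4 and CDK inhibitor genes, chosen with earlier results of these data known. Cdkn2b, for p15, which lies 11.6 kb from Cdkn2a, was at 13.0, 13.0 and 12.3 FPKM in WT and at 10.9, 8.86 and 11.0 FPKM in KO. It fell by 0.29 on the log2 scale (limma adjusted p = 0.0359), with no overlap between the groups. The limma adjusted p was 0.114, 0.101 and 0.0837 without WT replicates 1, 2 and 3, 0.133 with the acinar covariate and 0.0876 in KO replicate 1 alone. With no filter it was 0.0586. Cdkn2d, for p19Ink4d, was at 8.32, 9.47 and 9.43 FPKM in WT and at 9.96, 7.33 and 8.70 in KO, with a difference of -0.07 (limma adjusted p = 0.638). Cdkn2aip, for a protein that binds the product of the Arf transcript, was the other gene of the list to fall, from 9.28 to 7.61 FPKM on average (limma adjusted p = 0.0345). It missed the threshold without WT replicates 1, 2 and 3 and KO replicates 2 and 3 (0.106, 0.0844, 0.111, 0.0927 and 0.0813) and was at 0.302 in KO replicate 1 alone. In all, 0 of 3 tested genes of the list rose and 2 fell, with a median of -0.26. Over all tested genes 39.9% were called, 19.6% of them as lower in KO. Cdkn3, also on the list, had a mean of 0.244 FPKM and was not tested.

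Because FPKM are per length, the levels could be ordered. In WT the order was Ccnd2, Cdk4, Ccnd1, Cdkn1a, Cdkn1b, Ccnd3, Cdkn2c, Cdkn1c, Cdkn2a and Cdk6, and no 2 neighbours overlapped in their ranges over the 3 libraries. In KO, Cdkn1a moved from the fourth place to the second, after Ccnd2, and the ranges of Ccnd2 (112.4 to 136.5 FPKM) and Cdkn1a (96.99 to 112.4 FPKM) met. No other neighbours overlapped in KO. The ratio of Cdkn1a to Ccnd1 was 0.863, 0.853 and 0.763 in the WT libraries and 2.64, 3.26 and 3.13 in the KO libraries. This ratio was picked after the values of both genes had been seen and is given without a test.

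Shares within each class showed which gene made up the class. Ccnd1 was 28.7%, 25.7% and 28.7% of the summed FPKM of the D-type cyclins in WT and 18.9%, 20.2% and 20.5% in KO. Ccnd2 was 60.9% to 63.9% in WT and 67.5% to 70.5% in KO, and Ccnd3 was 9.69% to 10.4% and 10.6% to 12.3%. The groups did not overlap for any of these shares, and the exact two-sided permutation test gave p = 0.1 for each, the smallest it can give. Shares of a class add up to the whole, so a fall of Ccnd1 alone raises the other shares, and these are not separate results. The FPKM of Ccnd2 and Ccnd3 did not rise, with means of 133 and 21.8 in WT and 122 and 20.6 in KO. The cyclin sum itself was 214 ± 1.93 FPKM in WT and 178 ± 13.9 in KO (SD, n = 3 per group). Cdkn1a was 64.1%, 60.1% and 60.5% of the Cip/Kip sum in WT and 74.3%, 79.6% and 80.7% in KO, again without overlap (exact permutation p = 0.1). Cdkn1b made up 34.4% to 38.6% of it in WT and 17.9% to 24.7% in KO (exact permutation p = 0.1). This share is tied to that of Cdkn1a in the same way, and the FPKM of Cdkn1b overlapped between the groups (means of 29.2 and 27.8). The Cip/Kip sum was 79.3 ± 2.81 FPKM in WT and 136 ± 4.67 in KO. In the INK4 class, Cdkn2b had the largest share, at 46.5% to 49.1% in WT and 43.2% to 45.7% in KO, and Cdkn2d was next at 31.5% to 35.69% and 35.75% to 39.5% (exact permutation p = 0.1 for both).

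**Figure D3:**
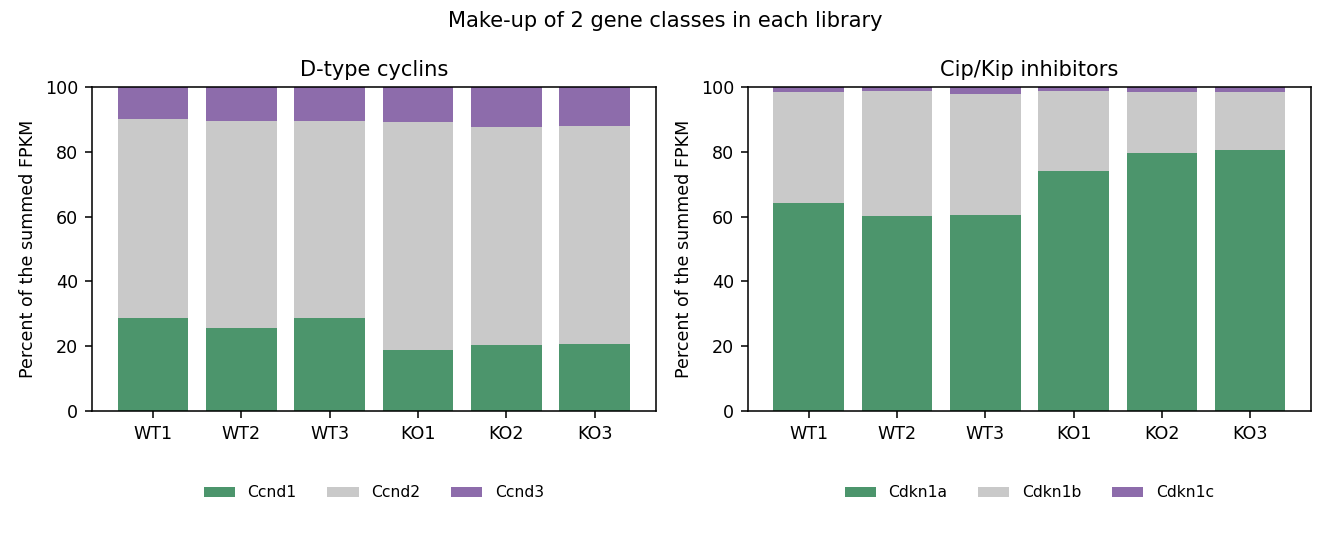
Stacked bars of the percent of the summed FPKM that each D-type cyclin (left) and each Cip/Kip inhibitor (right) takes in each library, from 0 to 100%. The Ccnd1 segment is 25.7% to 28.7% in the WT libraries and 18.9% to 20.5% in the KO libraries, and the Cdkn1a segment goes from 60.1% to 64.1% up to 74.3% to 80.7%.

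Genes around the members were taken from 10 pathway lists, which were chosen with earlier results of these data known. Each count is to be read beside the 39.9% called over all tested genes. Of 7 tested genes of cyclin E, cyclin A and Cdk2, 2 rose and 0 fell (median 0.10). These were Cdc25a, a phosphatase that activates cyclin-dependent kinases, at 5.88 ± 0.208 FPKM in WT and 7.86 ± 1.01 in KO (limma adjusted p = 0.0208), and Cdk7, of the kinase that activates them, at 3.47 ± 0.337 and 4.94 ± 0.558 (0.0168). Neither held throughout. Without WT replicates 1, 2 and 3 and KO replicate 2 the limma adjusted p of Cdc25a was 0.0779, 0.066, 0.0594 and 0.0548, and without WT replicates 1 and 3 that of Cdk7 was 0.068 and 0.0607. Of 10 tested RB and E2F genes (median -0.05), E2f4 rose (22.0 ± 0.443 to 26.2 ± 1.50 FPKM) and Rbl2, for the pocket protein p130, fell (7.55 ± 0.194 to 6.30 ± 0.514), with limma adjusted p of 0.019 and 0.0394. E2f4 had 0.0736, 0.0764 and 0.0506 without WT replicate 1, WT replicate 3 and KO replicate 2. Rbl2 had 0.107, 0.117, 0.106, 0.0539 and 0.0939 without WT replicates 1, 2 and 3 and KO replicates 1 and 2.

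Replication genes that E2F factors switch on did not move in 1 direction. Of 11 tested, 2 rose and 2 fell (median -0.06). Rrm2, a subunit of the enzyme that makes deoxynucleotides, rose from 1.73 ± 0.0171 to 3.17 ± 0.346 FPKM (limma adjusted p = 0.00323), and the helicase gene Mcm6 rose from 4.32 ± 0.283 to 6.95 ± 1.21 (0.0104). The sliding clamp gene Pcna fell from 63.5 ± 1.49 to 55.1 ± 0.493 FPKM (0.0186). Mcm4, another helicase gene, named after its values were seen, fell by 0.31 on the log2 scale (0.033) and was at 0.103, 0.122, 0.0581 and 0.0746 without WT replicates 1 and 3 and KO replicates 1 and 3. The call of Pcna was lost without WT replicates 1 and 3 (limma adjusted p of 0.0842 and 0.0742). Of 11 genes of G2 and mitosis in the data only Top2a and Aurka had a mean of at least 1 FPKM, and neither passed (limma adjusted p of 0.196 and 0.345; 0 of 2 called, median 0.08). Their unadjusted p were 0.126 and 0.259. With no filter, limma over 17734 genes gave Cdk1 and Plk1, named after their values were seen, differences of 0.32 and 0.33 with adjusted p of 0.0404 and 0.0223. No other gene of the list passed in that fit.

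Of 16 tested genes of the p53 axis, 6 rose and 3 fell, and the median difference was 0.24. Mdm2, the ubiquitin ligase that p53 induces and that degrades p53, rose from 17.7 ± 0.832 to 24.6 ± 1.61 FPKM (log2 difference 0.45, limma adjusted p = 0.0034). Ccng1, another p53 target, named here after its values were seen, rose from 25.3 ± 0.708 to 33.8 ± 2.19 FPKM (limma adjusted p = 0.00396). Other p53 targets went the opposite way: the cell death gene Bbc3 fell from 9.23 ± 0.297 to 4.56 ± 0.696 FPKM (0.00135), and Btg2, which also responds early to stimulation, from 187 ± 35.0 to 71.9 ± 7.96 (0.00132). Trp53 itself, also named after its values were seen, was at 14.6 ± 0.609 and 20.6 ± 3.73 FPKM (limma adjusted p = 0.0229). It missed the threshold without WT replicate 1, 2 or 3 (0.0838, 0.0551 and 0.0745). The list thus held members on both sides of 0 beside the rise of Cdkn1a.

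**Figure D4:**
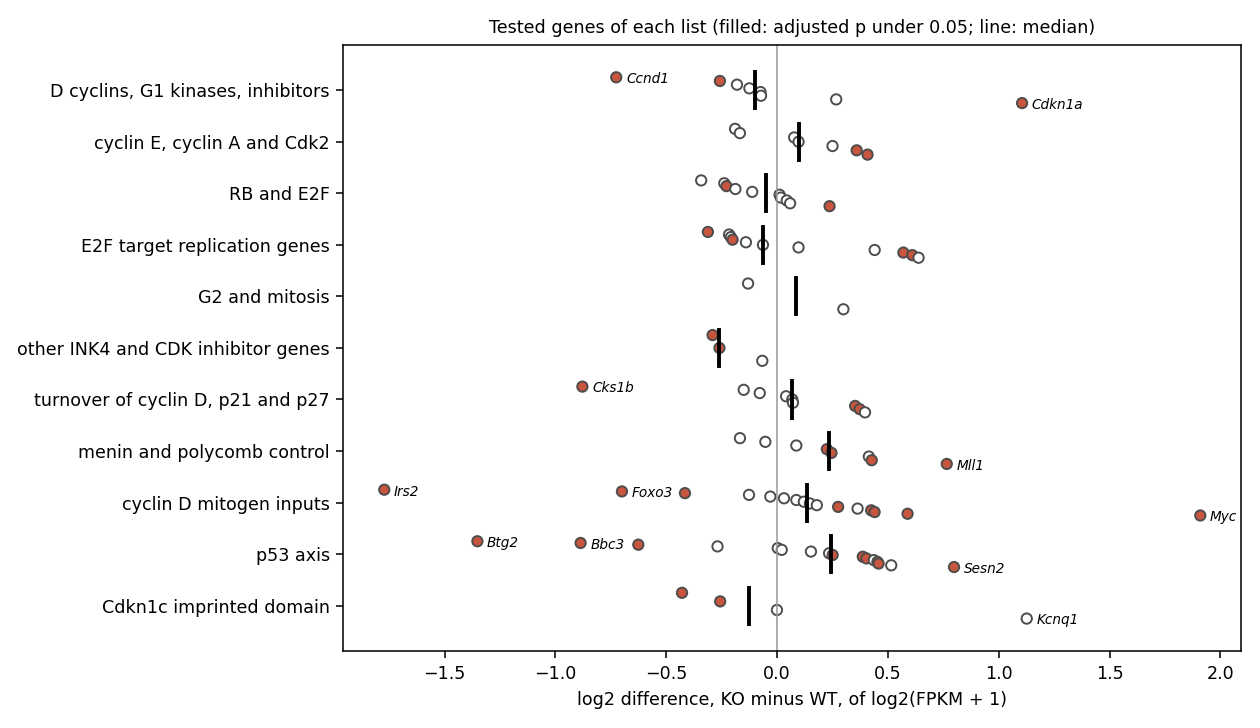
Log2 difference (KO minus WT) of every tested gene in the members' set and in the 10 pathway lists, filled where the limma adjusted p was under 0.05, with the median of each list as a line. Cdkn1a at 1.11 and Ccnd1 at -0.73 are the outermost points of the members' row, and Myc and Irs2 those of the mitogen inputs.

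Genes that feed into cyclin D included some of the widest differences. Of 16 tested mitogen inputs, 5 rose and 3 fell (median 0.13). Myc, a transcription factor that promotes entry into the cycle, was at 2.37, 2.60 and 2.88 FPKM in WT and at 6.38, 17.7 and 17.1 in KO (log2 difference 1.91, limma adjusted p = 0.00625). The 2 highest values were those of KO replicates 2 and 3, which also had the high acinar sums. Irs2, an adaptor of insulin and IGF receptors, fell from 49.4 ± 8.47 to 13.9 ± 3.88 FPKM (limma adjusted p = 0.00129). Foxo1, a transcription factor that insulin signalling keeps out of the nucleus, rose from 14.7 ± 1.13 to 22.5 ± 0.868 FPKM (0.00149). Foxo3, of the same list and named after its values were seen, went the other way. It fell from 23.8 ± 3.94 to 14.45 ± 3.92 FPKM (limma adjusted p = 0.0246).

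Of 9 tested genes for the turnover of cyclin D, p21 and p27, 2 rose and 1 fell (median 0.07). Cks1b, a cofactor in the degradation of p27, was at 18.6, 13.3 and 19.6 FPKM in WT and at 10.4, 8.34 and 7.71 in KO (log2 difference -0.88, limma adjusted p = 0.00662). Its groups did not overlap, and in KO replicate 1 alone the limma adjusted p was 0.0581. Ambra1, which directs D-type cyclins to degradation, rose from 8.74 ± 0.419 to 11.6 ± 0.687 FPKM (0.00637), and Gsk3b, a kinase that marks cyclin D1 for export and degradation, from 12.1 ± 0.194 to 15.7 ± 1.49 (0.011). Gsk3b was at 0.0502 without WT replicate 3. Of 8 tested genes of menin and polycomb, which in islets act on Cdkn1b, Cdkn2c and Cdkn2a, 4 rose and 0 fell (median 0.24). The methyltransferase gene Kmt2a, listed as Mll1, rose from 6.32 ± 0.509 to 11.5 ± 1.95 FPKM (0.00365), the polycomb gene Suz12 from 10.9 ± 0.678 to 15.0 ± 1.20 (0.00627) and the menin gene Men1 from 16.2 ± 0.561 to 19.4 ± 0.756 (0.0142). Men1 missed the threshold without WT replicates 1 and 2 (0.0542 and 0.051).

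With libraries scaled to equal sums outside the acinar genes, the median of all tested genes moved to -0.12 and 37.2% of calls were higher in KO, against 50.8% as deposited. Under that scaling Cdc25a, Cdk7, E2f4, Mcm6, Mdm2, Ccng1, Trp53, Ambra1, Gsk3b, Suz12 and Men1 had limma adjusted p of 0.0872, 0.0971, 0.548, 0.0805, 0.056, 0.0786, 0.175, 0.115, 0.104, 0.0894 and 0.397. Their differences were above 0 there too. Among genes that fell, Rbl2, Pcna, Nap1l4 and Cdkn2aip were at 0.0516, 0.0811, 0.0864 and 0.0912. Their differences were further from 0 than as deposited, at -0.34, -0.33, -0.38 and -0.37 against -0.23, -0.20, -0.26 and -0.26. The sums used for it contain Ins1, listed at 0 in 4 libraries, and with the insulin rows left out the median was -0.04 and 49.6% of calls were higher. In that fit E2f4, Pcna, Cdkn2aip, Men1, Nap1l4, Trp53 and Mcm4 had limma adjusted p of 0.173, 0.0815, 0.0979, 0.0677, 0.0918, 0.084 and 0.0636. Cdkn1a was at 0.98 and Ccnd1 at -0.85 under the first scaling, and both passed.

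Calls of pathway genes were also lost with KO replicate 1 alone and with the acinar covariate. Each of these fits has fewer residual degrees of freedom than the fit over all libraries. A call can therefore be lost there with no change in the difference, and a lost call does not by itself bear on acinar content. When KO replicate 1 stood alone, the limma adjusted p of Cdc25a, Rbl2, Pcna, Ambra1, Gsk3b, Men1 and Nap1l4 was 0.135, 0.081, 0.0529, 0.0524, 0.0682, 0.0985 and 0.109. The difference of Cdc25a was 0.19 there, against 0.36 over all KO libraries, that of Gsk3b 0.21 against 0.35 and that of Nap1l4 -0.16 against -0.26, while Pcna stood at -0.20 and Rbl2 at -0.23 in both. When the acinar level was a covariate, Cdc25a, Cdk7, Rbl2, Pcna, Cdkn2aip, Men1, Nap1l4, Trp53 and Mcm4 had limma adjusted p of 0.0787, 0.0603, 0.0879, 0.0533, 0.16, 0.0704, 0.0988, 0.0511 and 0.0617. The difference of Cdc25a was 0.22 in that fit.

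Position was also recorded, since Ffar3 lies on chromosome 7. On GRCm38 (GENCODE M21), Ccnd1 (ENSMUSG00000070348) spans chr7:144929931-144939925 on the minus strand, 114.1 Mb from Ffar3, and Cdkn1c (ENSMUSG00000037664) spans chr7:143458339-143461050, 112.6 Mb from it. Cdkn1a (ENSMUSG00000023067) is at chr17:29090976-29100727 and Cdk4 (ENSMUSG00000006728) at chr10:127063534-127067920, both on the plus strand. Of the 4 tested genes of the imprinted domain around Cdkn1c, 2 fell and 0 rose (median -0.13). These were Nap1l4, from 39.7 ± 1.22 to 33.1 ± 2.36 FPKM (limma adjusted p = 0.0211), and Tssc4, from 50.9 ± 3.31 to 37.5 ± 2.47 (0.00544). Nap1l4 was at 0.0792 and 0.083 without WT replicates 1 and 3.

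Ccnd1 and Cdkn1a stood in each of the 16 other fits, with Ccnd1 between -0.85 and -0.67 (limma adjusted p up to 0.00706) and Cdkn1a between 0.98 and 1.17 (up to 0.00588). Cdk4 kept its direction in all 16 and passed in 10.

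**Figure D5:**
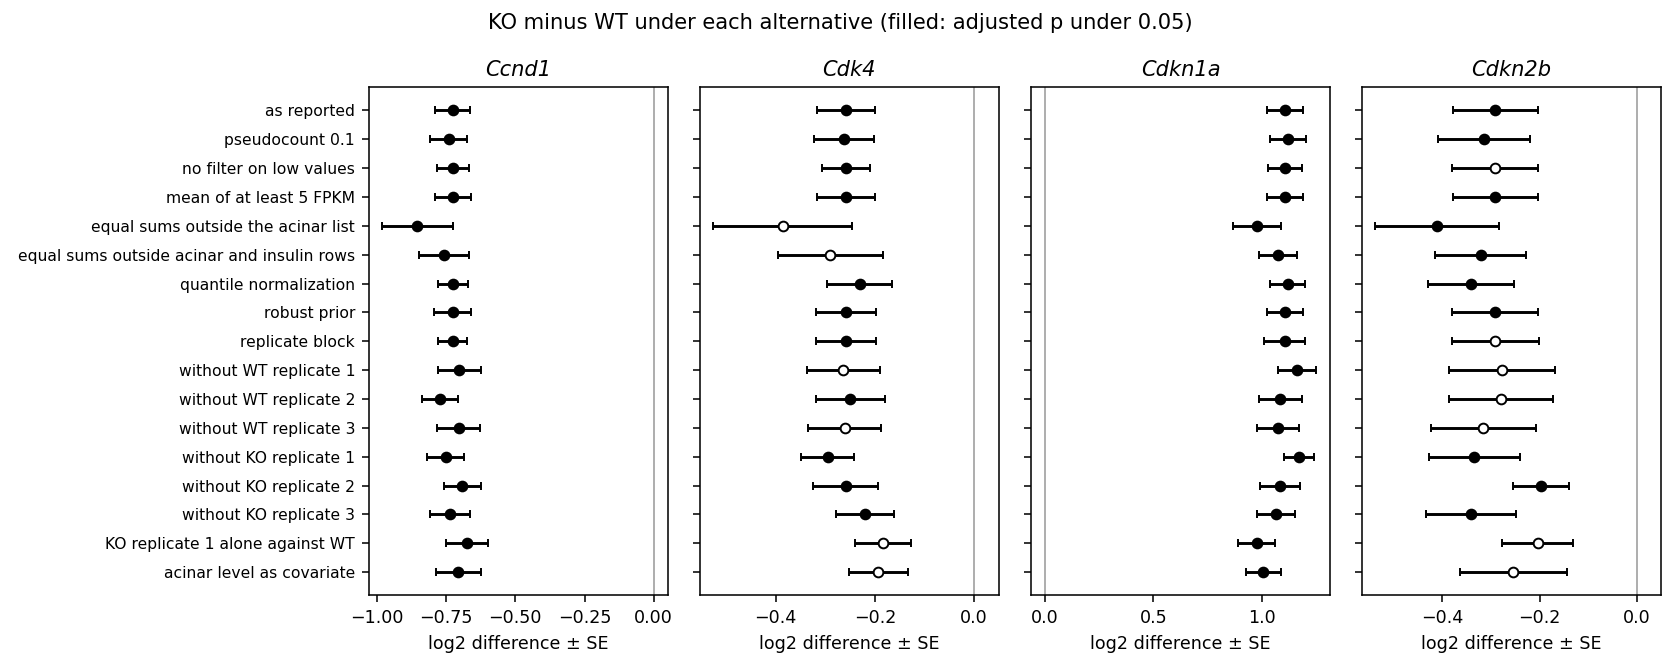
Log2 difference (KO minus WT) ± SE of Ccnd1, Cdk4, Cdkn1a and Cdkn2b as reported and under each of 16 alternatives, filled where the limma adjusted p was under 0.05; each panel has its own axis. All points of Ccnd1 and Cdkn1a are filled, and 6 of the alternatives for Cdk4 and 7 of those for Cdkn2b are open.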

How the data were processed

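Islet RNA of 3 WT and 3 KO libraries was sequenced, and the authors deposited 1 value per gene symbol and library. Per the submitters' processing notes, TopHat2 2.0.8b and Cuffdiff 2.1.1 were used with build mm10. The sources used here do not give the annotation, the strand setting or how libraries were scaled to each other. FPKM is the unit assumed for the deposited values, since Cuffdiff writes it, while the file headers name no unit. Depth is unknown.

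Nothing was rescaled before testing. Genes averaging 1 FPKM or more were put through limma 3.58.1 in R 4.3.3, as log2(FPKM + 1) (trended eBayes, a two-sided test of group, and no other term), with Benjamini-Hochberg adjustment over all tested genes and a threshold of 0.05. Single values were tested by exact permutation over libraries. The members and lists were chosen with earlier results of these data known. Named were all members, Ffar3, Cdkn2b, Cdkn2d and, per pathway list, up to 3 genes of the smallest adjusted p with groups that do not overlap, or else the 2 of highest mean. Where a list symbol was absent, RefSeq synonyms were searched for it. On data simulated for this comparison from 11669 genes with 200 changed in each of 5 runs, limma recovered 62.1% of changes of 0.5 log2, 89.0% of 1 and 98.5% of 2, and 4.7% of calls were false. The simulated noise was independent between genes and had the same spread in both groups. In the data 39.9% of genes were called and the acinar content differed among the KO libraries, so these rates need not hold for the real calls. Alternatives were a pseudocount of 0.1, no filter, a filter at 5 FPKM, libraries scaled to equal sums without the acinar genes, quantile normalization, eBayes with a robust prior, the replicate block, each library left out, KO replicate 1 alone, and the acinar level (mean log2 of the acinar list) as a covariate. Equal sums that also leave out the insulin rows were chosen after seeing the data. Positions came from GENCODE M21 and promoter windows from RefSeq GRCm38.p6, the assembly that mm10 denotes.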

Additional observations from a re-analysis of the deposited data

How the results depend on the processing

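Whether replicate numbers pair the libraries is not stated in the labels. Deviations of same-numbered WT and KO libraries from their group means correlated at -0.206, -0.0885 and 0.0276 over tested genes. With 3 libraries per group these values cannot decide whether the libraries were paired. With the replicate block 1988 genes were higher and 1877 lower in KO, against 2368 and 2289 as reported. Among the members, 1 was higher and 2 lower with the replicate block, as reported, and Cdkn2b, Rbl2, Cdkn2aip and Mcm4 missed the threshold (limma adjusted p of 0.061, 0.0834, 0.0577 and 0.0809). Not every library correlated best with its own number. The count of members higher was 1 in all 16 alternatives. The count lower was 1 when sums outside the acinar list were made equal, when the insulin rows were also left out, in KO replicate 1 alone and in the covariate fit. It ranged from 1 (without WT replicate 1 or 3) to 4 (without KO replicate 1) when 1 library was left out. Over all genes, the higher count was 955 under the first scaling, and the lower count was 1271 with the acinar covariate and 1267 in KO replicate 1 alone. Leaving out 1 library gave 1381 to 2890 higher and 1100 to 2837 lower; the extremes were without WT replicate 1 and without KO replicate 1, and without WT replicate 3 the counts were 1397 and 1110. Over the pathway lists, 22 genes were higher and 14 lower as reported. The higher count was 5 under the first scaling, 12 with the acinar covariate and 14 in KO replicate 1 alone, and the lower count was 9 with no filter, 7 in KO replicate 1 alone and 7 with the covariate. Leaving out 1 library gave 12 (without WT replicate 1 or 3) to 27 (without KO replicate 1) higher and 6 (without WT replicate 3) to 17 (without KO replicate 1) lower, with 7 and 9 lower without WT replicates 1 and 2. Directions reversed for Ccnd2 in KO replicate 1 alone (0.038), for Cdkn1b there (0.14) and with the covariate (0.098), and for Cdkn2d there (0.12), with the covariate (0.054) and when 1 library was left out (-0.16 to 0.036, the latter without KO replicate 2); none of the 3 genes was called over all libraries. Cdk6, which was not tested, went from 0.18 to -0.035 in KO replicate 1 alone. In KO replicate 1 alone the shares differed from WT by 8.33 percentage points for Ccnd2, 0.408 for Ccnd3, -0.0188 for Cdk6, 12.7 for Cdkn1a, -12.1 for Cdkn1b and 5.54 for Cdkn2d, against 6.34, 1.45, 0.349, 16.6, -16.3 and 3.10 over all KO libraries. The cause of these changes was not tested. Depth is unknown, so no counting error can be given for the low values of Cdk6, Cdkn1c and Cdkn2a.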

Other observations

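Genes of G2 and mitosis were mostly under the filter on low values, and they are given here as levels. Of 11 in the data, 9 had a mean under 1 FPKM. Mki67, the standard marker of cycling cells, was at 0.293, 0.340 and 0.371 FPKM in WT and at 0.512, 0.785 and 0.477 in KO (limma adjusted p = 0.0675 with no filter). The mitotic kinase genes Cdk1, Plk1 and Aurkb, named with Mki67 after their values were seen because their groups did not overlap either, were also higher in all 3 KO libraries. The groups overlapped for the others of the list: Top2a, Ccnb1, Ccnb2, Bub1, Aurka, Birc5 and Cdc20. Aurka had a lower mean in KO (0.955 FPKM, against 1.14 in WT). Over all tested genes, which average at least 1 FPKM, 56.3% did not overlap. Mki67, Cdk1, Plk1 and Aurkb were under that filter, and the share among genes under it was not computed. Cdk1 was at 0.404 to 0.597 FPKM in WT and 0.717 to 1.05 in KO (limma adjusted p = 0.0404 with no filter), and Plk1 at 0.191 to 0.203 and 0.385 to 0.665 (0.0223). Aurkb was at 0.126 to 0.181 FPKM in WT and 0.225 to 0.599 in KO (0.0716). The sum of 11 lymphoid genes was 7.12 to 8.19 FPKM in WT. The KO replicates had 96.3, 181 and 18.4 in order, so that all 3 lay above WT. Mki67, Plk1 and Aurkb took the same order as these sums among the KO libraries. Cdk1 did not, at 0.717, 1.05 and 0.858 FPKM, with KO replicate 3 above KO replicate 1. Sums of myeloid genes (137, 218 and 80.1 FPKM in KO replicates 1, 2 and 3) had the order of the lymphoid sums too. So did those of stellate (61.0, 65.5 and 41.1) and endothelial genes (148, 168 and 142). Not every stellate gene took this order. Vim did, at 18.97, 27.49 and 10.45 FPKM in KO replicates 1, 2 and 3, while Rgs5 was highest in KO replicate 1, at 30.9, 26.1 and 24.6. The part of any of these cell types in the mitotic genes was not tested.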
